A study of Mus musculus with 25 samples.

Results

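The inflammatory cytokines of the IL1, TNF and IL6 families and their main receptors were followed in FACS-sorted microglia from neuronal Bin1-cKO mice. The 10 genes were chosen by symbol, out of 43411 genes in the deposited table: the ligands Il1a, Il1b, Tnf, Il6, Osm and Clcf1, the IL6 receptor chain Il6ra, the signal-transducing chain Il6st (gp130), and the TNF receptors Tnfrsf1a and Tnfrsf1b. All 10 passed the filter on low counts. The study asked how microglia respond when Bin1 is lost from forebrain excitatory neurons. It sequenced RNA from CD11b+, CD45med microglia of mice aged 3 months, and 23 mice with a library each were used here. WT littermates were Bin1flox/wt without Thy1-Cre (2 females and 4 males), heterozygous Bin1-cKO mice were Bin1flox/wt with Thy1-Cre (4 females and 3 males), and homozygous Bin1-cKO mice were Bin1flox/flox with Thy1-Cre (5 females and 5 males), from the lines B6.129S6-Bin1tm2Gcp/J and FVB/N-Tg(Thy1-cre)1Vln/J. Every mouse carried a floxed allele, and the homozygous mice carried 2 of them in microglia as well. Thy1-Cre drives Cre in neurons, so the sorted cells were not the cells in which Bin1 was meant to be deleted. Mice are named here by genotype, sex (F or M) and a number within the group.

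IL1α and IL1β bind the same IL1 receptor. IL1α is active as made and is released by damaged cells, whereas IL1β needs cleavage by caspase-1 in the inflammasome. TNF is made as a membrane protein, is shed by ADAM17 and signals through a broadly expressed death-domain receptor (Tnfrsf1a) and a receptor enriched in immune cells (Tnfrsf1b), both of which can activate NF-kB. IL6, oncostatin M (Osm) and cardiotrophin-like cytokine factor 1 (Clcf1) all signal through gp130 to JAK kinases and STAT3, and SOCS3 shuts this signal off. In the brain, microglia are a main source of IL1 and TNF, whose transcripts are short-lived and are induced together with immediate-early genes such as Fos when cells are stimulated.

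Total counts ranged from 10812969 to 16734846 per mouse. Bin1, the targeted gene, was at 600 to 814 CPM (read counts corrected for library size) in WT, 629 to 747 CPM in heterozygous and 327.6 to 673 CPM in homozygous microglia, where 8 of 10 mice lay below all others. Since Cre is neuronal, this checks the labels only in part. All 10 microglia markers on a list written from general knowledge were present. The animal numbers in the labels split the homozygous mice into a 03xx range (6 mice) and a 04xx range (4 mice), whereas all WT and heterozygous mice lie in a 02xx range, so genotype and animal-number range cannot be told apart. The labels do not say what the ranges stand for. Of 25 labelled mice, 23 had a column, and no pair of columns was identical. Those without a column are a WT female and a heterozygous male. The study removed a sample from each of these groups for few uniquely mapped reads and high duplication. It also found both to be outliers in its principal component analysis.

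Homozygous Bin1-cKO microglia had higher levels of all 6 cytokine transcripts than WT microglia, by 1.67-fold (Osm) to 4.32-fold (Tnf), and lower levels of all 4 receptor transcripts, by 15.8% (Tnfrsf1a) to 29.1% (Il6ra). Over the 12908 genes tested with edgeR's quasi-likelihood test, a gene counts as called when its adjusted p is below 0.05 and it differs by more than 1.5-fold. By this rule 6 of the 10 genes were called higher and 0 lower, against 1.65% of all genes tested called higher and 1.75% called lower (3.4% in either direction). At an adjusted p below 0.05 with no fold limit, 6 were higher and the 4 receptors lower, against 5.66% and 7.09% of all genes. Against heterozygous mice, 5 of the 10 genes were called higher and 0 lower, against 2.32% and 4.3% of all genes (6.62% in either direction), and without the fold limit 6 were higher and 4 lower, against 11.1% and 11.7%. The median log2 fold change against WT was 0.78 over the 10 genes and 0.01 over all genes tested. Against heterozygous mice these medians were 0.695 and -0.0027. In heterozygous against WT microglia 0 of the 10 genes and 0 of all genes were called by edgeR, with 0 of the 10 and 998 of all genes at an unadjusted p below 0.05. DESeq2 and limma-voom also called 0 of the 10 genes there. The comparisons of homozygous mice with WT and with heterozygous mice share the homozygous mice, so their values are given side by side and are not independent.

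**Figure D1:**
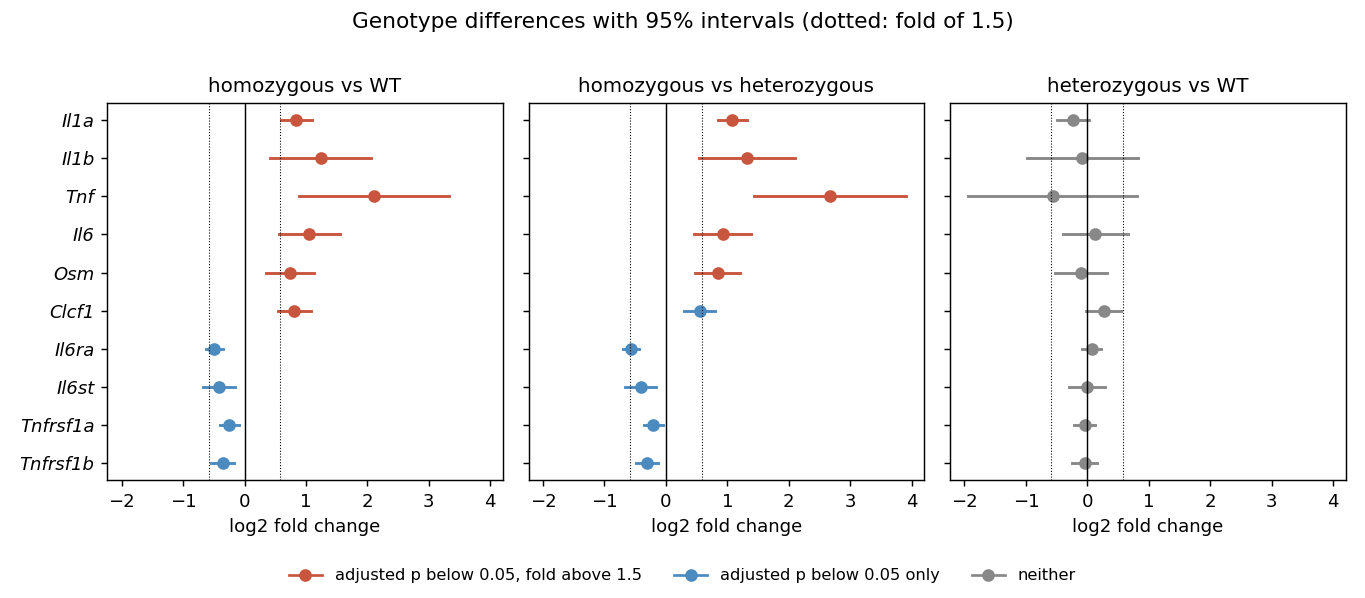
Log2 fold change of each of the 10 genes (points) with its 95% interval (lines) in the 3 comparisons of genotypes, with dotted lines at a fold of 1.5. The 6 cytokines lie right of 0 and the 4 receptors left of 0 in both comparisons of homozygous mice, and all 10 intervals of heterozygous against WT mice cover 0.

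Ligands of the IL1 family were led by Il1a (ENSMUSG00000027399.1, chromosome 2 from 129299610 to 129309972 on the minus strand of GRCm38, protein-coding). Il1a ranged from 101 CPM over a median of 131 CPM to 149 CPM in the 6 WT mice, from 93.2 over 102 to 125 CPM in the 7 heterozygous mice, and from 168 over 230 to 318 CPM in the 10 homozygous mice. Every homozygous mouse was above every other mouse, a pattern that 0.403% of all genes tested showed. The log2 fold change was 0.85 against WT (SE 0.12, adjusted p = 0.00013) and 1.082 against heterozygous mice (SE 0.11, adjusted p = 1.9e-06).

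Il1b (ENSMUSG00000027398.11, chromosome 2 from 129364570 to 129371139, minus strand), which encodes the inflammasome-processed ligand, was close to the lower end of what this depth can measure, at 4 to 123 counts per mouse. It ranged from 0.293 over 1.82 to 2.85 CPM in WT, from 0.511 over 1.43 to 3.19 CPM in heterozygous and from 2.46 over 3.44 to 8.99 CPM in homozygous mice. Of the homozygous mice, 9 of 10 lay above all WT mice and 8 of 10 above all other mice. Expressed as log2 fold change, the difference was 1.24 against WT (SE 0.40, adjusted p = 0.041) and 1.32 against heterozygous mice (SE 0.38, adjusted p = 0.015). The call against WT was lost when any 1 of 6 mice was left out (WT F2, M1 or M4, or homozygous F5, M2 or M4), with log2 fold changes of 0.95 to 1.44 over all 23 such fits.

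Per kilobase of exon, the level of Il1a was 65.7 ± 9.21 CPM (SD, n = 6) in WT and 116 ± 25.1 CPM (SD, n = 10) in homozygous mice, and that of Il1b was 0.907 ± 0.497 and 2.21 ± 0.972 CPM. Il1a was thus the predominant IL1 transcript in every mouse, at 27.7 to 477 times the level of Il1b per kilobase. An antisense gene overlaps each of them, and no strand setting is given in the sources used here, so reads of the partners cannot be told apart. Gm14023, opposite Il1a, was listed at 1.06 to 9.82 CPM (a mean of 2.16 CPM in WT and 5.09 CPM in homozygous mice), and Il1bos, opposite Il1b, at 0 to 1.58 CPM.

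Tnf (ENSMUSG00000024401.12, chromosome 17 from 35199381 to 35202007, minus strand) showed the largest difference of the 10 genes and the largest spread among homozygous mice. It ranged from 1.73 over 2.49 to 6.496 CPM in WT, from 0 over 2.03 to 4.06 CPM in heterozygous and from 2.83 over 9.77 to 34.3 CPM in homozygous mice. The 0 was that of heterozygous M1, where 0 of 11493107 counts allows up to 0.256 CPM (3 counts, counting error only). In homozygous mice 6 of 10 were above all other mice, and the other 4 lay within the range of WT mice. The log2 fold change was 2.11 against WT (SE 0.59, adjusted p = 0.020) and 2.67 against heterozygous mice (SE 0.60, adjusted p = 0.0027). The call against WT was lost by limma-voom (1.74, adjusted p = 0.092) and in edgeR without WT F1.

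Il6 (ENSMUSG00000025746.9, chromosome 5 from 30013114 to 30019981, plus strand) ranged from 2.36 over 4.37 to 8.04 CPM in WT, from 4.12 over 5.09 to 6.69 CPM in heterozygous and from 5.92 over 9.78 to 14.5 CPM in homozygous mice. In 7 of 10 homozygous mice Il6 was above all other mice. Il6 had a log2 fold change of 1.05 against WT (SE 0.24, adjusted p = 0.0057) and 0.92 against heterozygous mice (SE 0.23, adjusted p = 0.0055). It was called against WT in all 23 fits that left out 1 mouse.

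Osm (ENSMUSG00000058755.3, chromosome 11 from 4236420 to 4241026, plus strand) was tight in WT mice, at 17.2 over 18.4 to 20.4 CPM, and in heterozygous mice, at 15.4 over 16.7 to 22.6 CPM. In homozygous mice it ranged from 17.8 over 26.0 to 47.1 CPM, with 8 of 10 above all WT mice and 7 of 10 above all other mice. The log2 fold change was 0.74 against WT (SE 0.19, adjusted p = 0.011) and 0.84 against heterozygous mice (SE 0.18, adjusted p = 0.0018).

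Clcf1 (ENSMUSG00000040663.8, chromosome 19 from 4214238 to 4223490, plus strand) ranged from 17.7 over 23.2 to 26.5 CPM in WT, from 23.1 over 26.7 to 35.1 CPM in heterozygous and from 28.6 over 43.0 to 51.6 CPM in homozygous mice. All 10 homozygous mice were above all WT mice, a pattern seen in 0.674% of genes, and 6 were above all other mice. Clcf1 had a log2 fold change of 0.81 against WT (SE 0.13, adjusted p = 0.00035). Against heterozygous mice it was 0.55 (SE 0.12, adjusted p = 0.0023), below the fold threshold. Heterozygous mice lay between the other genotypes on average, at 27.9 ± 4.27 CPM (SD, n = 7) against 22.7 ± 2.98 CPM (SD, n = 6) in WT, a difference that did not pass the test (log2 fold change 0.26, adjusted p = 0.67, edgeR). Its interval of -0.02 to 0.55 leaves room for a rise of up to 1.46-fold. AC109138.7, a gene on the same strand, overlaps Clcf1, so reads in the overlap cannot be told apart by strand.

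**Figure D2:**
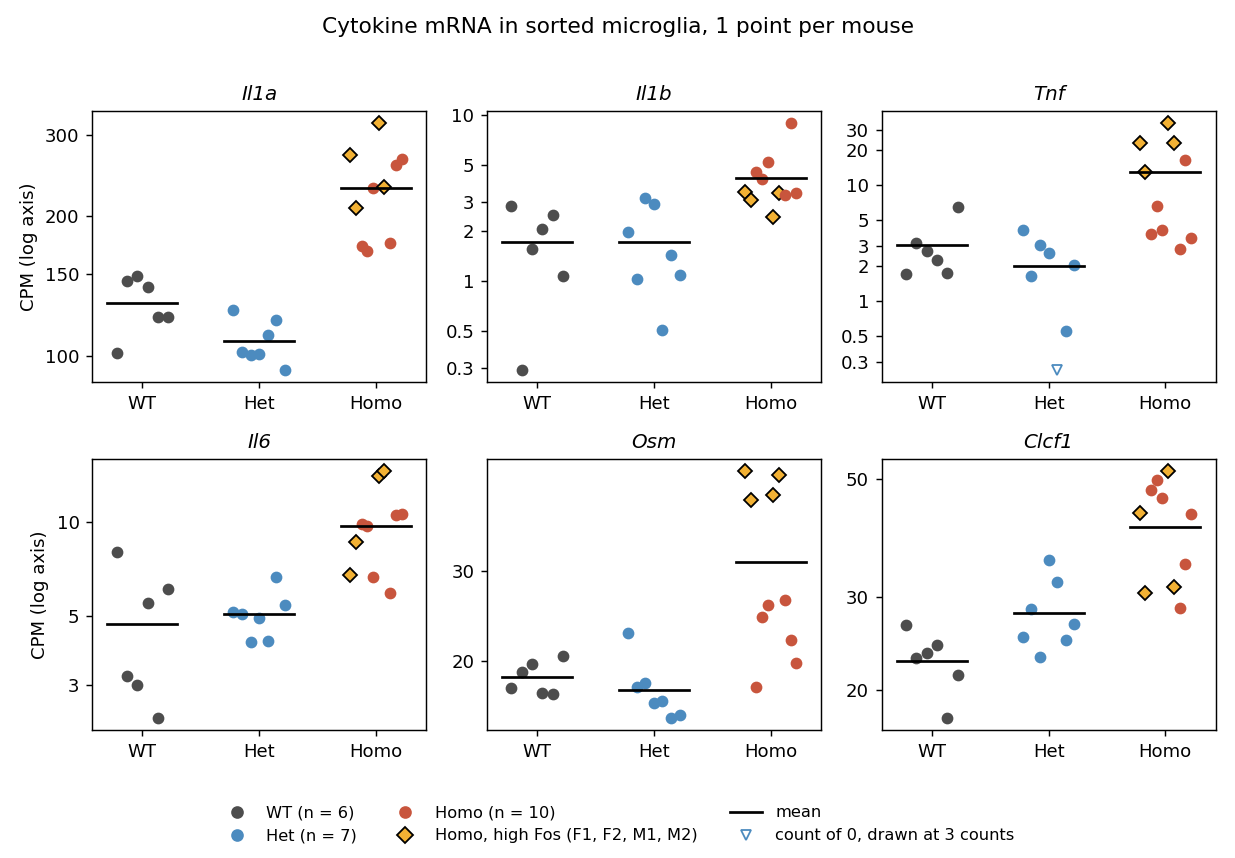
CPM of the 6 cytokine transcripts (log axis), 1 point per mouse in WT (n = 6), heterozygous (n = 7) and homozygous (n = 10) mice, with the group mean as a line and the 4 homozygous mice of highest Fos as diamonds. Every homozygous point is above all other points for Il1a, and the 4 diamonds stand apart from the other homozygous mice for Osm.

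Since 5 of the 6 cytokines were called higher against both other genotypes (the exception is Clcf1 against heterozygous mice), the DNA just before each start site was read for 4 of them. The 250 bases before the start of Il1a (chr2:129309973-129310222, minus strand), Il1b (chr2:129371140-129371389, minus strand), Tnf (chr17:35202008-35202257, minus strand) and Il6 (chr5:30012864-30013113, plus strand) are printed 5′ to 3′ from RefSeq's GRCm38.p6 sequence. Capitals mark matches to the NF-kB consensus, to the AP-1 site TGANTCA (the site bound by FOS and JUN proteins), to the CRE core TGACGT and to the TATA box TATAAA. The first 3 were searched on both strands and the last on the printed strand alone.
Il1a: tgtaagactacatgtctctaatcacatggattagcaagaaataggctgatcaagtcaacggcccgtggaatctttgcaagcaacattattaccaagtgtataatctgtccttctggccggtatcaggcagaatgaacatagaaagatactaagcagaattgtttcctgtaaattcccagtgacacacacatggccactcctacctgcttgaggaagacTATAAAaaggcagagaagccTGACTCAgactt
Il1b: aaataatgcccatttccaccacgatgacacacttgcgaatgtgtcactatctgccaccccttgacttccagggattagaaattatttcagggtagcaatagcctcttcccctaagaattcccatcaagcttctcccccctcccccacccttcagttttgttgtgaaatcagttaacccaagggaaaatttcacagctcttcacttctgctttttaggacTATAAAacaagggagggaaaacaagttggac
Tnf: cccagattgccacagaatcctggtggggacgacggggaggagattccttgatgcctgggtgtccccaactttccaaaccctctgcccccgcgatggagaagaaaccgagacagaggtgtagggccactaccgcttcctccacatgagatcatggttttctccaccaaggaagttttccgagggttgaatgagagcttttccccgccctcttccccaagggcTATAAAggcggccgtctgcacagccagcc
Il6: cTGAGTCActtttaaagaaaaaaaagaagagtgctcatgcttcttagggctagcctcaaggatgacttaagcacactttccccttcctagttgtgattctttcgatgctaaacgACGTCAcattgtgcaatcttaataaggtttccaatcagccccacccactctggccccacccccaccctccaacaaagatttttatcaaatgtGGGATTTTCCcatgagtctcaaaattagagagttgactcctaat

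The TATA box started 32, 31 and 29 bases before the start of Il1a, Il1b and Tnf. Among 32817 mouse promoters of the same length, 7.6% held one. Il1a held an AP-1 site 12 bases before its start and Il6 held one 249 bases before its start (6.75% of all promoters). Il6 also held an NF-kB match 44 bases before its start (3.9%) and a CRE core on the other strand 136 bases before it (6.46%). The searched motifs were not found in the windows of Il6ra, Il6st, Tnfrsf1a and Tnfrsf1b (the RefSeq window of Tnfrsf1a, chr6:125349473-125349722, lies inside the gene as given below, since the annotations place its start differently), and Osm and Clcf1 have no entry. A match is a string of letters in this window and shows no binding.

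All 4 receptor transcripts were lower in homozygous mice. Il6ra (ENSMUSG00000027947.9, chromosome 3 from 89864059 to 89913196, minus strand), the chain that binds IL6 itself, ranged from 418 over 463 to 517 CPM in WT, from 429 over 492 to 559 CPM in heterozygous and from 269.6 over 335 to 372 CPM in homozygous mice. All 10 homozygous mice lay below all other mice, as 0.418% of genes did, and 1.14% of genes had all homozygous below all WT mice. The log2 fold change was -0.50 against WT (SE 0.068, adjusted p = 9.0e-05) and -0.57 against heterozygous mice (SE 0.064, adjusted p = 4.8e-06), both below the fold threshold. An antisense gene, Gm42809, overlaps Il6ra as well and was listed at 0 to 0.753 CPM.

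Il6st (ENSMUSG00000021756.10, chromosome 13 from 112464070 to 112510086, plus strand), the shared gp130 chain, ranged from 339 over 457 to 682 CPM in WT, from 343 over 465 to 571 CPM in heterozygous and from 276 over 343 to 459 CPM in homozygous mice. The groups overlapped, with 4 of 10 homozygous mice below all other mice. Il6st had a log2 fold change of -0.42 against WT (SE 0.13, adjusted p = 0.035) and -0.41 against heterozygous mice (SE 0.12, adjusted p = 0.017).

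Of the TNF receptors, Tnfrsf1a (ENSMUSG00000030341.15, chromosome 6 from 125349362 to 125362484, plus strand) ranged from 199.8 over 221 to 263 CPM in WT, from 199 over 224.5 to 266 CPM in heterozygous and from 160.1 over 198 to 215.2 CPM in homozygous mice (log2 fold change against WT -0.25, SE 0.076, adjusted p = 0.033). Tnfrsf1b (ENSMUSG00000028599.8, chromosome 4 from 145213463 to 145246870, minus strand) ranged from 586 over 729 to 931 CPM, from 556 over 690.4 to 860.1 CPM and from 499 over 588 to 665 CPM, respectively (-0.36, SE 0.092, adjusted p = 0.012). Against heterozygous mice the values were -0.20 (SE 0.072, adjusted p = 0.044) and -0.31 (SE 0.088, adjusted p = 0.013). The value of Tnfrsf1a there passed in 8 of 23 fits that left out 1 mouse, and not with library totals only (-0.13, adjusted p = 0.092). The immune receptor predominated per kilobase of exon in every mouse, at 1.70 to 2.59 times Tnfrsf1a.

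**Figure D3:**
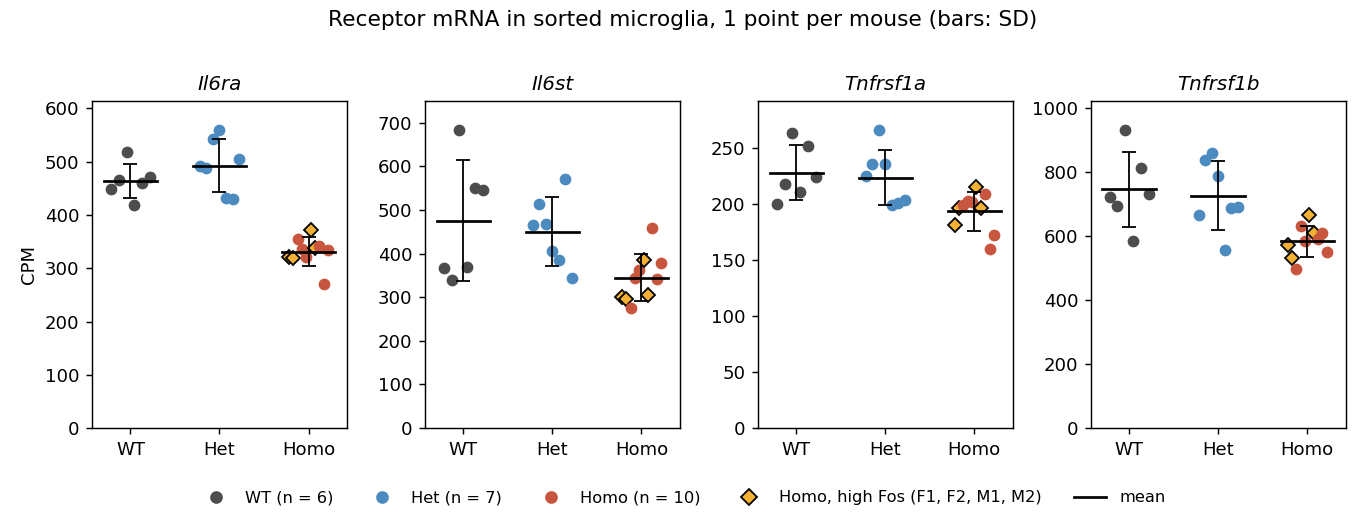
CPM of the 4 receptor transcripts, 1 point per mouse, with the group mean and SD and the 4 homozygous mice of highest Fos as diamonds. Homozygous mice lie below all others for Il6ra and overlap with the other genotypes for Il6st, Tnfrsf1a and Tnfrsf1b.

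Several markers of microglia moved with the receptors. Of the 10 microglia markers, 5 were lower at an adjusted p below 0.05 in homozygous than in WT mice, and none of these 5 passed the fold threshold. Among them were Cx3cr1 (log2 fold change -0.51), Csf1r (-0.50), Tmem119 (-0.43) and P2ry12 (-0.33). The median over the 10 markers was -0.23, and their summed level was 66828 to 94634 CPM in WT, 61908 to 82946 CPM in heterozygous and 58526 to 68676 CPM in homozygous mice. The part of these markers in the fall of the receptors was not tested. In bulk RNA fewer cells of a type and less RNA per cell cannot be told apart. Scaled by library totals alone, which moved the median of all genes by 0.10, Il6st (-0.31, adjusted p = 0.066) and Tnfrsf1a (-0.15, adjusted p = 0.10) no longer passed the test against WT, while Il6ra and Tnfrsf1b did.

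Levels per kilobase of exon set the 10 genes in nearly the same order in each genotype. In WT mice the mean level was 196 ± 30.5 CPM per kilobase (SD, n = 6) for Tnfrsf1b, 87.9 ± 9.42 for Tnfrsf1a, 65.7 ± 9.21 for Il1a, 53.7 ± 3.75 for Il6ra and 42.8 ± 12.4 for Il6st. The other ligands followed at 8.17 ± 0.598 for Osm, 5.98 ± 0.784 for Clcf1, 1.94 ± 0.908 for Il6, 1.84 ± 1.09 for Tnf and 0.907 ± 0.497 for Il1b. Il6ra and Il6st, and Il6, Tnf and Il1b, did not differ beyond their spread. In homozygous mice Il1a, at 116 ± 25.1 CPM per kilobase (SD, n = 10), stood above Tnfrsf1a at 74.6 ± 6.59, and Tnf, at 7.95 ± 6.64, stood above Il6 at 4.01 ± 1.21 with overlapping spread.

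Genes around these cytokines were read from lists drawn up from general knowledge, without the 10 genes. The genes called higher against WT included a feedback inhibitor of cytokine signaling and factors of mRNA decay. Of 11 tested genes of the IL6 family and its JAK-STAT3 signal, 1 was called higher, Socs3, the feedback inhibitor of gp130 (29.1 to 57.5 CPM in WT, 38.6 to 161 CPM in homozygous mice, log2 fold change 1.29, SE 0.29, adjusted p = 0.0051). Il11ra1, the IL11-binding receptor chain, was lower in 10 of 10 homozygous mice than in any WT mouse, though below the fold threshold (-0.49, SE 0.068, adjusted p = 9.0e-05). Jak1, the most abundant gene of this list, was at -0.05 (adjusted p = 0.77), and the list's median was -0.05.

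Of 8 tested factors of cytokine mRNA decay, 2 were called higher and the median was 0.13. Zfp36 (tristetraprolin), which destabilizes AU-rich transcripts such as Tnf, ranged from 109 to 150.3 CPM in WT and from 141 to 1235 CPM in homozygous mice (2.13, SE 0.48, adjusted p = 0.0055). Zc3h12a (regnase-1), an endonuclease that cleaves Il6 transcripts, ranged from 8.92 to 12.9 CPM in WT and from 13.5 to 27.5 CPM in homozygous mice, with no overlap (0.84, SE 0.15, adjusted p = 0.0010). The most abundant gene of the list, Zfp36l2, was at 0.11 (adjusted p = 0.22).

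Of 9 tested genes of the IL1 family, 1 was called higher, Il1rl1, the receptor of IL33 (2.13 to 9.15 CPM in WT, 5.95 to 16.5 CPM in homozygous mice, 0.84, SE 0.25, adjusted p = 0.024). Il18, the most abundant of this list, was at 32.9 ± 4.05 CPM (SD, n = 6) in WT and 33.4 ± 8.21 CPM (SD, n = 10) in homozygous mice. Of 7 genes for processing and release of IL1, 1 passed the adjusted p below the fold threshold, Casp1 (0.28, SE 0.075, adjusted p = 0.017), and the most abundant, Pycard, was at -0.05 (adjusted p = 0.70). Of 16 tested genes of the Tnf locus and TNF receptor signaling, Birc3 was higher (0.34, adjusted p = 0.0044) and Ltbr lower (-0.26, adjusted p = 0.0098), both below the fold threshold, and Adam17, the TNF sheddase and most abundant gene of the list, was at -0.23 (adjusted p = 0.15). The medians of these 3 lists were 0.00, 0.21 and 0.03. Casp1, Birc3, Ltbr and Il11ra1 were picked for mention after their values were seen.

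Among genes that these cytokines are known to induce, 1 of 9 STAT3 targets and 1 of 9 NF-kB targets were called higher, with medians of 0.20 and 0.27. Junb, of the STAT3 list, is also an immediate-early gene. It ranged from 171 to 245 CPM in WT and from 213.9 to 2391 CPM in homozygous mice (2.12, SE 0.51, adjusted p = 0.0081). Nfkbiz (IkB-zeta), which is needed for a secondary wave of cytokine genes that includes Il6, ranged from 6.46 to 13.3 CPM in WT and from 15.4 to 51.4 CPM in homozygous mice, with no overlap (1.68, SE 0.28, adjusted p = 0.00059). Icam1, the most abundant NF-kB target, was lower (-0.33, SE 0.10, adjusted p = 0.037). Zc3h12a and Nfkbiz were thus higher in every homozygous mouse than in every WT mouse, as Il1a and Clcf1 were and as 0.674% of all genes were.

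Markers of other cells were read in the same libraries, since neutrophils and monocytes also make these cytokines. Of 6 monocyte markers 3 were tested, 2 of them higher and 1 lower, and Ccr2 alone was called (1.28, SE 0.23, adjusted p = 0.00081). The summed level of the 6 was 4.85 to 11.03 CPM in WT, 4.94 to 13.5 CPM in heterozygous and 8.96 to 25.5 CPM in homozygous mice. Much of this sum was Ccr2 itself, at 3.68 to 5.70 CPM in WT and 7.85 to 20.2 CPM in homozygous mice. Of 7 neutrophil markers 6 were tested, 5 of them higher and 1 lower against WT, with a median log2 fold change of 1.69. None had an unadjusted p below 0.05 there. Against heterozygous mice the median was 2.11, with 2 at an unadjusted and 0 at an adjusted p below 0.05 (edgeR). The sum of the 7 was 2.64 to 47.4 CPM in WT, 4.25 to 60.2 CPM in heterozygous and 2.34 to 98.5 CPM in homozygous mice. The 7 markers of border macrophages summed to 6.90 to 31.6, 13.3 to 54.4 and 5.94 to 38.2 CPM, and the 7 lymphocyte markers to at most 1.28 CPM in any mouse. Neuron markers were lower, with 3 of 5 tested called, and summed to 6.23 to 32.2 CPM in WT and 2.04 to 5.86 CPM in homozygous mice. The part of these cells in the cytokine levels was not tested. Mrc1, Cldn5 and Nkg7 are listed at 0 in every mouse, and so are widely expressed genes such as Btg2 and Mapkapk2, so a listed 0 is not read as absence.

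Fos, an immediate-early gene and part of the AP-1 factor, divided the homozygous mice into separate clusters. In F1, F2, M1 and M2 it was at 1459, 824, 926 and 1207 CPM, and in the other 6 at 0.363 to 6.999 CPM, against 0.0677 to 1.73 CPM in WT mice. All 4 mice with high Fos carry 03xx numbers, as do 2 of the 6 with low Fos (F3 and M3), and the 04xx range holds the other 4. F3 and M3 were at 6.999 and 5.32 CPM, and the 04xx mice at 0.363 to 1.97 CPM. Every 03xx mouse was thus above every 04xx mouse for Fos. Of the homozygous mice, 7 of 10 were above all WT mice for it, F3 and M3 among them. Of the immediate-early genes, a list that includes Fos, 9 of 13 tested were called higher against WT, where 1.65% of all genes were. Because of the separate clusters no correlation over the 10 mice is given, and each cytokine is described mouse by mouse.

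The 4 mice with high Fos also had the highest Osm levels. Osm was at 47.1, 41.3, 42.4 and 46.3 CPM in F1, F2, M1 and M2, and at 17.8 to 26.3 CPM in the 6 mice with low Fos, without overlap. A separation of this kind was seen for 3.04% of genes upward and 1.81% downward, and for 1 of the 10 genes here. Of the 6 mice with low Fos, 4 were above all WT mice for Osm.

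The highest Tnf levels were also found in mice with high Fos, with 1 exception. Tnf was at 22.9, 12.95, 34.3 and 23.2 CPM in F1, F2, M1 and M2, and at 2.83 to 6.59 CPM in 5 mice with low Fos. M4 was at 16.3 CPM of Tnf with 1.97 CPM of Fos, above F2 of the high-Fos mice.

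Il1a, Il6 and Clcf1 overlapped between the clusters. Il1a was at 209 to 318 CPM in the 4 mice with high Fos and 168 to 266 CPM in the others, Il6 at 6.78 to 14.5 and 5.92 to 10.6 CPM, and Clcf1 at 30.5 to 51.6 and 28.6 to 49.7 CPM. For Il1a and Clcf1 all 10 homozygous mice were above all WT mice (as for 0.674% of genes), so the 6 with low Fos were too. Il1b was above all WT mice in these 6, Il6 in 4 of them and Tnf in 2. The share of all genes with such patterns in the 6 mice was not computed. Il1b overlapped too, at 2.46 to 3.47 CPM with high Fos and 3.30 to 8.99 CPM with low Fos. Its highest levels were in mice with low Fos, and 2 of the 4 mice with high Fos lay below all 6 others.

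**Figure D4:**
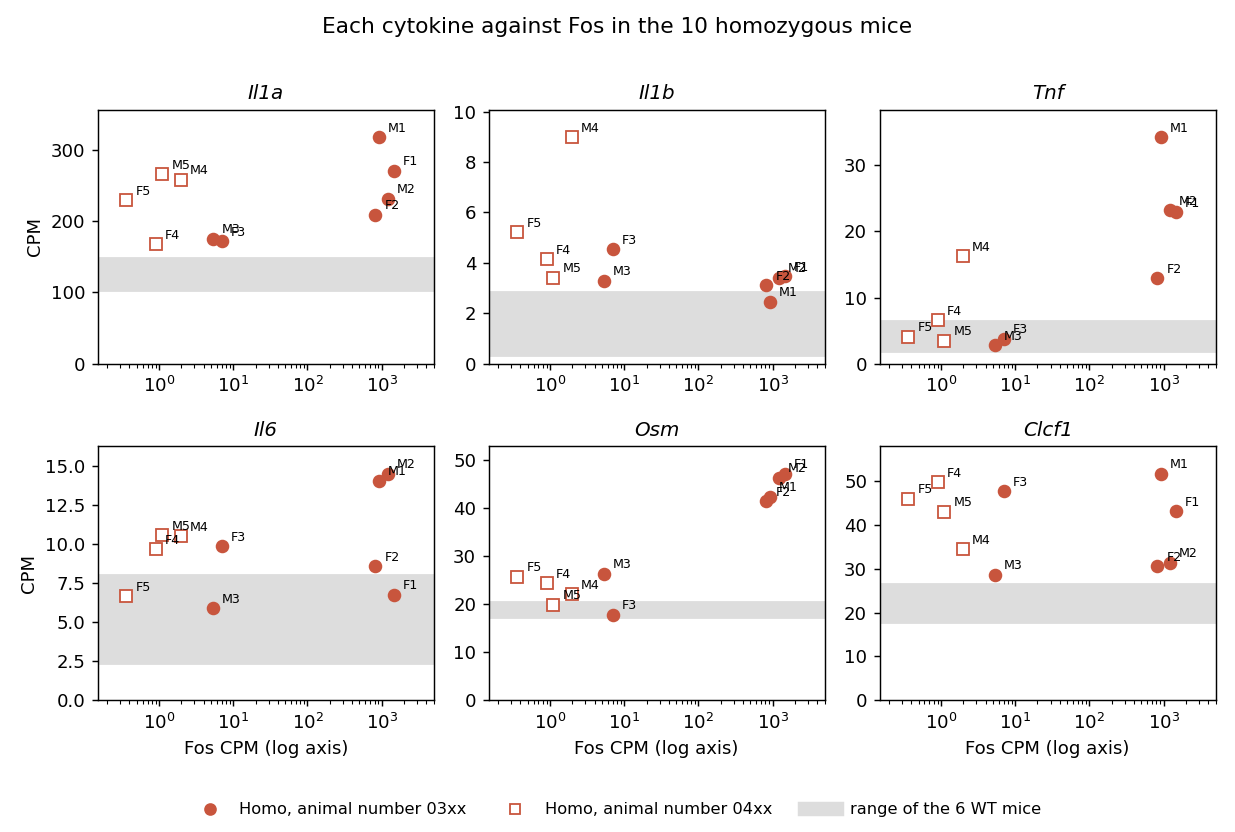
CPM of each cytokine against CPM of Fos (log axis) in the 10 homozygous mice, named by sex and number, with filled points for the 03xx and open squares for the 04xx animal numbers and a grey band over the range of the 6 WT mice. The 4 mice with Fos at 824 CPM or more are above the others for Osm, mostly so for Tnf, and mixed with the others for Il1a, Il1b, Il6 and Clcf1.

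The receptors overlapped between the clusters as well, with Il6ra at 319 to 372 CPM with high Fos and 269.6 to 355 CPM with low Fos. Zfp36 separated the clusters, at 952 to 1235 CPM with high Fos and 141 to 248 CPM with low Fos. Junb separated them too, at 1355 to 2391 and 213.9 to 298 CPM. Of the 6 mice with low Fos, 3 were above all WT mice for Junb. Socs3 overlapped, at 133.9 to 153 and 38.6 to 161 CPM. Zc3h12a and Nfkbiz, above all WT mice in every homozygous mouse, were at 13.5 to 19.9 and 15.4 to 22.3 CPM in the 6 mice with low Fos. The summed markers of border macrophages were lower in the mice with high Fos (5.94 to 17.8 CPM) than in the others (23.9 to 38.2 CPM), and those of neutrophils overlapped (26.6 to 98.5 and 2.34 to 92.2 CPM). The part of these cells in the split was not tested.

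When the 4 mice with high Fos were left out, 4 of the 6 cytokines were still called higher against WT (1.15% of all genes in that fit were). They were Il1a (log2 fold change 0.72, adjusted p = 0.00098), Il1b (1.47, adjusted p = 0.045), Il6 (0.91, adjusted p = 0.033) and Clcf1 (0.83, adjusted p = 0.000595). Osm (0.28, adjusted p = 0.15) and Tnf (1.01, adjusted p = 0.31) were not. With log2 CPM of Fos as a covariate the same 4 were called higher (0.73, 1.49, 0.90 and 0.87), against 1.1% of all genes, and Osm (0.24, adjusted p = 0.32) and Tnf (0.93, adjusted p = 0.38) were again not called. Of the receptors, Il6ra (-0.53, adjusted p = 0.00051) and Tnfrsf1b (-0.38, adjusted p = 0.030) stayed past the adjusted p without these 4 mice, as 4.83% of all genes did on the lower side, while Il6st (-0.35, adjusted p = 0.16) and Tnfrsf1a (-0.28, adjusted p = 0.052) did not.

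The ranges of animal numbers were also compared with WT one at a time. With the 03xx mice alone, 5 cytokines were called higher against WT, where 1.74% of all genes were, among them Osm (0.98, adjusted p = 0.0015) and Tnf (2.44, adjusted p = 0.011), and Il1b was not (0.87, adjusted p = 0.20). With the 04xx mice alone, Il1a (0.85, adjusted p = 0.00024), Il6 (0.99, adjusted p = 0.041) and Clcf1 (0.90, adjusted p = 0.00029) were called higher, against 1.18% of all genes, and Il1b (1.62, adjusted p = 0.057), Tnf (1.31, adjusted p = 0.22) and Osm (0.28, adjusted p = 0.17) were not. Between the 2 ranges of homozygous mice, 0 of 10 genes passed at an adjusted p below 0.05 (two-sided exact permutation test over 210 splits, adjusted over the 10 genes). After adjustment a gene on its own could pass only as the most extreme of the 210 splits, so a lack of calls says little here. The smallest unadjusted p was that of Il1b, at 3.38 ± 0.680 CPM (SD, n = 6) in 03xx and 5.44 ± 2.48 CPM (SD, n = 4) in 04xx mice (exact permutation p = 0.052, adjusted p = 0.41). Osm was at 36.9 ± 12.0 and 23.0 ± 2.58 CPM (exact permutation p = 0.10, adjusted p = 0.41).

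**Figure D5:**
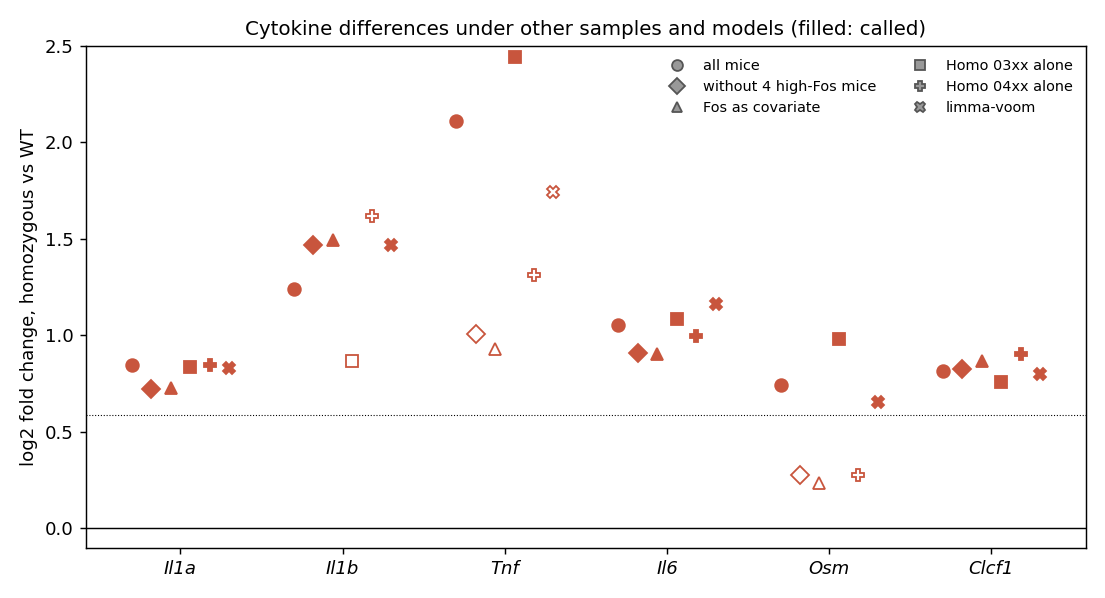
Log2 fold change of each cytokine between homozygous and WT mice with all mice, without the 4 homozygous mice of highest Fos, with Fos as a covariate, with each animal-number range of homozygous mice alone, and by limma-voom, filled where the gene was called, with a dotted line at a fold of 1.5. Il1a, Il6 and Clcf1 are filled throughout, Osm is open where the mice with high Fos are absent or Fos is in the model, and Tnf is open there and by limma-voom.

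Outside the 4 mice with high Fos, no relation with Fos passed the test. Over the 6 homozygous mice with low Fos, the 7 heterozygous and the 6 WT mice, 30 relations of the 10 genes with Fos were computed on log2 CPM, and 0 passed at an adjusted p below 0.05 (smallest adjusted p 0.84 for Pearson's r and 0.81 for Spearman's rho, exact permutation tests). Of the 30 relations 20 had n = 6, where the smallest exact permutation p of Spearman's rho is 0.0028. By rho, 1 such relation alone could not go below 0.083 after adjustment. For Pearson's r the smallest possible p can be lower. With so few mice a lack of calls says little here. Among the 6 homozygous mice with low Fos, the 03xx mice F3 and M3 had the highest Fos. Fos and animal-number range cannot be fully told apart there. In these 6 mice Osm had r = -0.40 (exact permutation p = 0.41), rho = -0.37 (exact permutation p = 0.50) and r = -0.67 without the 2 mice farthest from the median of Fos. Tnf had r = -0.18 (exact permutation p = 0.76), rho = -0.37 (exact permutation p = 0.50) and r = 0.72 without the farthest 2, so its sign rested on them. The relation of smallest p was that of Clcf1 in heterozygous mice, with r = -0.82 (exact permutation p = 0.028), rho = -0.68 (exact permutation p = 0.11) and r = -0.03 without the farthest 2.

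Across all 23 mice, with genotype and sex removed from log2 CPM, Osm was most like Jun (Spearman's rho 0.94), Ccl3 (0.91) and Dusp1 (0.89) among 12908 genes. Without the 4 mice with high Fos these values were 0.38, 0.52 and 0.32 over 19 mice, so they rested largely on those 4 mice. Jun is the partner of Fos in AP-1, Ccl3 is a chemokine that microglia make, and Dusp1 is a phosphatase that turns off MAP kinases. Tnf was most like Tut7 (0.89), Dusp6 (0.85), a phosphatase of ERK, and Ppp1r3d (0.84), at 0.74, 0.66 and 0.75 without those 4 mice. Il1a was most like Dclre1a (0.73), Snx22 (0.71) and Prep (0.71), and Il1b most like Ormdl2 (0.71), Uxs1 (0.70) and Gm38317 (0.67). For Il6 the likest were A430057M04Rik (0.77), Phc1 (0.70) and 9530082P21Rik (0.69), and for Clcf1 they were Slc18a1 (0.80), Cwf19l2 (0.76) and Rpl23a-ps3 (0.75). Among the 10 genes themselves, Osm and Tnf were at 0.70 (0.41 without the 4 mice), Tnfrsf1a was at 0.75 with Il6ra and 0.69 with Tnfrsf1b (0.69 and 0.65 without them), and Il1a and Il1b were at -0.06. These values describe the same 23 libraries, which share depth and scaling.

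The sexes did not differ detectably in the genotype effect. The interaction of sex with homozygous against WT had an adjusted p of at least 0.995 for all 10 genes in edgeR, with 0 of the 10 at an unadjusted p below 0.05. Il6 had the smallest (log2 fold change 0.57 in females and 1.39 in males, interaction 0.82, SE 0.47, p = 0.093 in edgeR's quasi-likelihood test). Each of the 6 cytokines was higher and each of the 4 receptors lower in homozygous than in WT mice in both sexes. With 2 WT females, the female differences have wide errors.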

How the data were processed

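RNA from sorted microglia of 23 mice was measured by RNA-seq. The authors mapped single-end reads to mm10 with OmicSoft OSA4, using Ensembl R84 gene models, and RSEM gave expected counts for each gene. The deposited table holds those expected counts without any correction for depth or transcript length, and 82.2% of its values are exactly whole, with no tolerance. Values were rounded before testing. Neither the strand setting nor the treatment of multi-mapping reads is given in the sources used here. Of the gene identifiers, 42929 had a GRCm38 symbol, coordinates and exon length, and 482 did not.

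The filter filterByExpr (edgeR 4.0.16, R 4.3.3; grouping by genotype) left 12908 genes, scaled by TMM. CPM are counts divided by the TMM-scaled library size, and log2 CPM has a prior count of 2. Genotype and sex entered a single quasi-likelihood fit of edgeR over the 3 genotypes, adjusted by Benjamini-Hochberg over all genes tested. A call needed an adjusted p under 0.05 and more than 1.5-fold difference, as in the study. Standard errors and 95% intervals were derived from the fold change and its test statistic. Alternatives were DESeq2 1.42.0, limma-voom (limma 3.58.1), RLE scaling, library totals only, no filter, a filter of at least 1 CPM in 6 mice, a prior count of 0.5, no sex term, the compared genotypes alone, either animal-number range of homozygous mice alone, log2 CPM of Fos as a covariate and each mouse left out in turn. Leaving out the 4 homozygous mice with the highest Fos, also for the genes most like each cytokine, was chosen after seeing the data. Simulated counts with known changes were used to check these tests. Simulated mice of a genotype shared a common mean for each gene, so a split like that by Fos was not covered.

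The genes and lists were chosen with earlier results of these data known. The genes named are the 10 members and Fos, the called and the most abundant gene of each list, and the 3 genes most like each cytokine, with exceptions named where they stand. The values of 1 microglia marker are not reported here on their own. P-values measure the spread between mice. The depth gives 4 to 123 counts of Il1b, 0 to 572 of Tnf and 31 to 235 of Il6 per mouse, against at least 185 for the other 7 genes. Figures used matplotlib 3.10.9 (Python 3.11.15).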

Additional observations from a re-analysis of the deposited data

Results flagged for a closer look

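Among 30 sets of values checked (10 genes in 3 genotypes), 4 held a mouse far from the others of its genotype by Dixon's test at the 95% level, which chance passes for about 1 in 20 sets. Homozygous M4 had the highest Il1b of its genotype, 8.99 CPM against 5.22 CPM in the nearest mouse. The same mouse had the lowest Il6ra, 269.6 CPM against 319.5 CPM in the nearest, and its summed neutrophil markers, 2.34 CPM, were the lowest of the homozygous mice. WT M4 had the highest Tnf of its genotype, 6.496 CPM against 3.15 CPM, and heterozygous F1 the highest Osm, 22.6 CPM against 18.1 CPM. Without homozygous M4 the log2 fold change of Il1b against WT was no longer called.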

How the results depend on the processing

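Between homozygous and WT mice, 6 of the 10 genes were called higher with all mice, 3 with the homozygous 04xx mice alone, and 5 to 6 with 1 mouse left out. The 4 receptors lower at an adjusted p below 0.05 became 2 with library totals only, with either animal-number range of homozygous mice alone, with Fos as a covariate or without the 4 mice with high Fos, and 1 to 4 with 1 mouse left out (1 without WT M1, and 2 without WT M3, WT M4 or homozygous M4). Between homozygous and heterozygous mice, the 5 genes called higher became 3 with Fos as a covariate or without the 4 mice with high Fos, and 5 to 6 with 1 mouse left out. Il6ra was called lower there (1 gene, against 0 with all mice) with the 04xx mice alone, with Fos as a covariate, without the 4 mice with high Fos, and without heterozygous M1, heterozygous M3 or homozygous M1 (0 to 1 with 1 mouse left out). The 4 receptors lower there became 1 with the 04xx mice alone and 2 with Fos as a covariate or without the 4 mice with high Fos, and were 3 to 4 with 1 mouse left out. The cause of these changes was not tested.

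The direction of all 10 genes in both comparisons of homozygous mice held under every alternative run. Between heterozygous and WT mice, where no gene was called, values near 0 changed sign. Il1b was at -0.08 with all mice, 0.13 by limma-voom, 0.015 with no sex term and -0.40 to 0.15 with 1 mouse left out. Il6st was at -0.00 with all mice, 0.00078 by limma-voom, 0.038 with library totals only and -0.088 to 0.10 with 1 mouse left out. Il6 (-0.0071 to 0.45), Tnfrsf1a (-0.11 to 0.0012) and Tnfrsf1b (-0.099 to 0.026) changed sign with 1 mouse left out. No paired analysis was possible because the labels used here name no litter or pair of mice. Depth limits the precision most for Il1b (a median of 35 counts per mouse), Tnf (46) and Il6 (88).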
